A study of Mus musculus with 16 samples.

Results

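Microglial expression was examined for 10 genes whose human orthologs lie at Alzheimer's disease risk loci, namely Bin1, Picalm, Sorl1, Cd33, Abi3, Cd2ap, Inpp5d, Plcg2, Rin3 and Ptk2b. They were chosen by gene symbol, with earlier results of these data known, and all 10 were found among the 55385 genes listed in the count table. RNA had been sequenced from brain cells of female mice aged 20 weeks that were sorted with magnetic beads against CD11b, a surface protein of myeloid cells. There were 16 libraries, 4 from each of 4 genotypes. WT mice carried neither change, Card9-/- mice lacked CARD9, an adaptor that relays signals from pattern recognition receptors through the kinase SYK, 5xFAD mice carried human transgenes with familial Alzheimer mutations and form amyloid plaques, and Card9-/-5xFAD mice carried both changes. The 5xFAD transgenes are expressed in neurons, so the sorted cells meet their product from outside, and the Card9 deletion is carried by every cell of the animal. Brains were freed of meninges and choroid plexus ahead of sorting.

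Genetic risk for late-onset Alzheimer's disease is enriched near genes that microglia express, and these 10 genes fall into a few cell-biological groups. Cd33 encodes a sialic acid receptor whose human form has inhibitory motifs, and Inpp5d encodes SHIP1, a lipid phosphatase that limits PI3K signaling below immune receptors. Plcg2 encodes the phospholipase C that acts below TREM2 and other receptors coupled to SYK. Bin1, Picalm, Cd2ap, Rin3 and Sorl1 act in membrane bending, clathrin endocytosis, actin linkage, RAB5 activation and endosomal sorting of the amyloid precursor protein. Abi3 is tied to the WAVE complex that drives actin branching, and Ptk2b encodes the calcium-responsive kinase PYK2.

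With libraries taken as unpaired, none of the 10 genes passed the test of differential expression (edgeR quasi-likelihood F test, Benjamini-Hochberg adjusted p under 0.1 over 14513 genes) in any of the 7 comparisons of the design. Cd33 came closest: it was lower with the 5xFAD transgenes, at 0.655 of the level without them (log2 fold change −0.61, SE 0.218, n = 8 against 8, adjusted p = 0.106), and whether it was called depended on the tool, on the pairing of libraries and on 4 libraries that stood apart from the rest. With same-numbered libraries of a Card9 genotype treated as pairs, Cd33, Inpp5d, Rin3, Bin1 and Plcg2 passed the test and were lower with the transgenes (edgeR adjusted p = 0.00427, 0.0244, 0.0283, 0.0538 and 0.0921), where 41.9% of all genes passed and 23.8% passed and were lower. The labels do not state this pairing. It was inferred from correlations in these same data, after they had been seen, and these calls depend on it. Without those 4 libraries and unpaired, Cd33 was lower by 0.61 on the log2 scale with an SE of 0.134, and it passed the test (edgeR adjusted p = 0.00675). Inpp5d and Plcg2 had the highest estimates for Card9 deficiency, 0.63 and 0.62 on the log2 scale over both transgene states, without passing the test.

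Each library held 2970148 to 19333325 counts on genes (median 7944265), and the lowest count of any of the 10 genes was 54, so all 10 passed the filter on low counts. Microglial markers, among them Cx3cr1, P2ry12, Tmem119, Csf1r, Itgam, Aif1, Fcrls, Sall1 and Siglech, were present in every library, and the summed level of the 10 markers used was 16252 to 33349 counts per 1000000 counts of the library (CPM). Card9 itself was counted in every library labelled Card9-deficient (27 counts or more), at medians of 32.4 CPM in Card9-/- and 18.7 CPM in Card9-/-5xFAD against 41.3 CPM in WT and 30.9 CPM in 5xFAD, so total Card9 counts did not separate the labels. A deletion of part of the gene would leave counts on the rest, and which exons gave the counts was not analysed here.

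The library lowest on the first component of the variation within genotypes was picked in each genotype. That there is 1 per genotype follows from this rule. They were WT replicate 1, Card9-/- replicate 4, 5xFAD replicate 1 and Card9-/-5xFAD replicate 4, the libraries that stood apart. Their scores were −103 to −43.2, and those of the other 12 were −8.77 to 45.8. The component held 74.8% of the variance of the 2000 most variable genes, with the 10 risk genes left out. Its sign was set so that it rose with the microglial markers. Only the risk genes were barred from it, so marker sums describe the picked libraries and are no separate support. Choroid plexus or ependymal markers summed to 1129 to 2499 CPM in these 4 libraries and to 3.06 to 864 CPM in the other 12. Among these markers Ttr ran from 0.197 to 2479 CPM over all libraries, while Foxj1 stayed at or below 0.110 CPM. Neutrophil markers summed to 2091 to 6294 against 486 to 2352 CPM, monocyte markers to 199 to 386 against 57.1 to 167 CPM, and microglial markers to 16252 to 19049 against 20744 to 33349 CPM. Results are given with and without these libraries, and leaving them out was chosen after the data had been seen. In bulk RNA of sorted cells, fewer cells of a type and less RNA per cell cannot be told apart.

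Per kilobase of exon, the 10 genes covered a wide range of levels. Bin1 had the highest mean over the 16 libraries (136 ± 42.8 CPM per kb, SD), above 95.9% of 11407 protein-coding genes tested. Inpp5d (77.7 ± 28.9), Cd33 (50.3 ± 16.4) and Plcg2 (38.3 ± 19.4) followed, and then Picalm (19.5 ± 5.67), Abi3 (13.8 ± 4.66) and Ptk2b (13.5 ± 6.61). Rin3 (6.63 ± 1.84), Cd2ap (5.40 ± 1.30) and Sorl1 (2.92 ± 0.806 CPM per kb) were the lowest, and Sorl1 lay above 34.1% of coding genes. In this order Cd33 and Plcg2, Abi3 and Ptk2b, and Rin3 and Cd2ap were neighbors whose means differed by less than the SD of either gene over libraries. Genotype held 49.6% of the variance of log2 CPM for Inpp5d, 43.3% for Cd33 and 38.8% for Rin3, and 5.74% for Abi3, where the median over all genes tested was 20.8%.

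**Figure D1:**
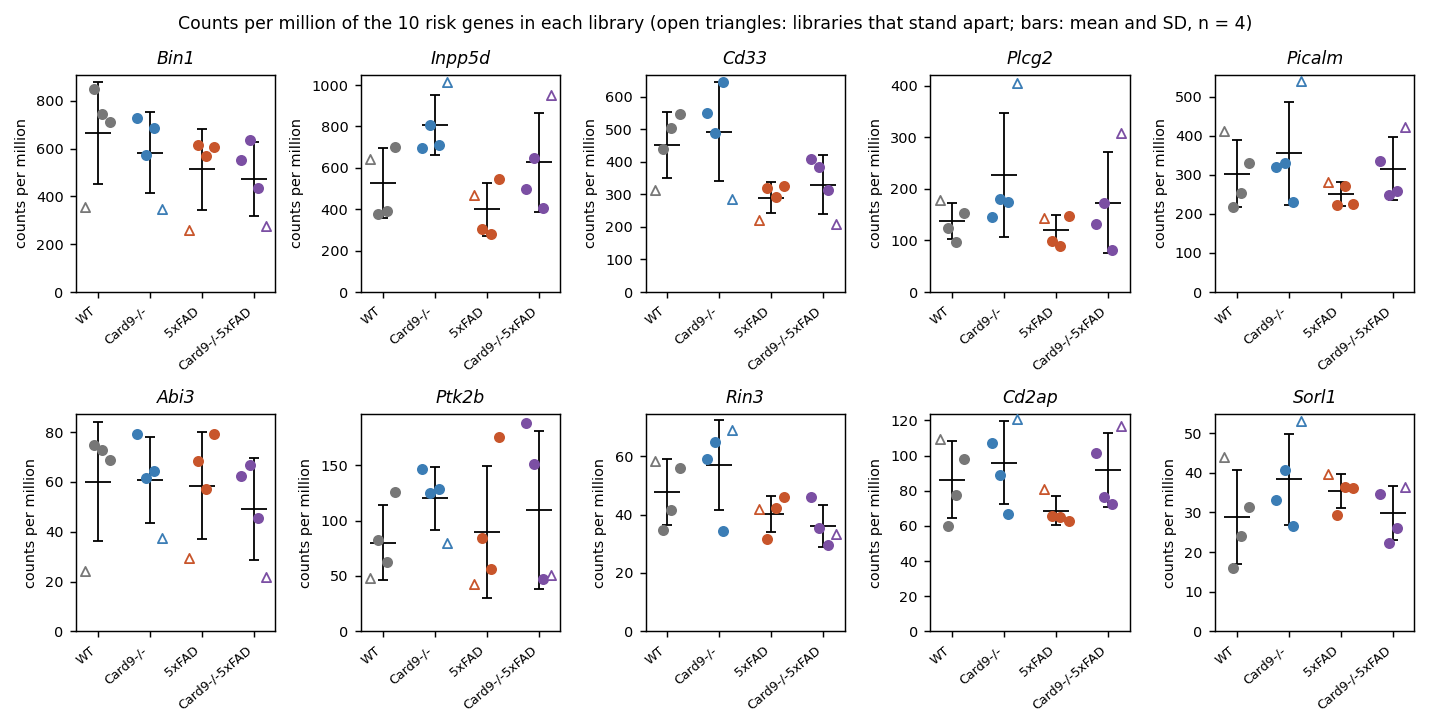
CPM (y axis, linear from 0) of each risk gene in the 16 libraries, by genotype on the x axis and in order of level per kilobase. Points are libraries, open triangles are the 4 libraries that stood apart, and bars give the mean and SD of 4 libraries; Bin1, Cd33 and Abi3 have the triangle lowest in all 4 genotypes, and Picalm, Sorl1 and Cd2ap have it highest.

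To show regulatory sequence for Cd33 and for the pair of genes with the highest estimates for Card9 genotype, the 250 bases before the RefSeq start (GRCm38.p6) are printed for Cd33 (chr7:43533172-43533421, minus strand), Inpp5d (chr1:87620062-87620311, plus strand) and Plcg2 (chr8:117498025-117498274, plus strand). Each runs 5′ to 3′ on the strand of the gene, and capitals mark GAGGAA, the core that the myeloid factor PU.1 binds, or CACGTG, the E-box of the MITF and TFE family, on either strand.
Cd33: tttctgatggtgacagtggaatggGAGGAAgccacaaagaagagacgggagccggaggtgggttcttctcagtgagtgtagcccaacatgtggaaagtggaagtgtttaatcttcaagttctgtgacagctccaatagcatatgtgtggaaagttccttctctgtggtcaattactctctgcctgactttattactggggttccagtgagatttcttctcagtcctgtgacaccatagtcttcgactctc
Inpp5d: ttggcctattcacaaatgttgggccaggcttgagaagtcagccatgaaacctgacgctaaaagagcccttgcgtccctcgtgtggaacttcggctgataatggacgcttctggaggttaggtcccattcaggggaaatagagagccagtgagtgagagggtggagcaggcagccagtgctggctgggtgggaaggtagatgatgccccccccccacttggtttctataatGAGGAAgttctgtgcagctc
Plcg2: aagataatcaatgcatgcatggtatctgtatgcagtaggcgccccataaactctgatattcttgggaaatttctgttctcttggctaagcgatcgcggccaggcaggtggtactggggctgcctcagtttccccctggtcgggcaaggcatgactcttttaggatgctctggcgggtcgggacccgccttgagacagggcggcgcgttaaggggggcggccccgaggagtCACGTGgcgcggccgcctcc
The first base of the match lay 226 bases before the start in Cd33, 20 bases before it in Inpp5d, and 20 bases before it in Plcg2. Over the whole windows of 300 bases, which run to 50 bases past the start, 9 windows of 7 of the 10 genes were at hand. GAGGAA on either strand was in the windows of 3 of these 7 genes (Cd33, Inpp5d and Picalm) and in 28.3% of all 32851 mouse windows of the same length. CACGTG was in the windows of 3 genes (Picalm, Plcg2 and Sorl1) and in 7.15% of all windows. The AP-1 motif TGANTCA (7.81% of all windows) and a paired IRF motif (3.44%) were in none of them. These counts describe letters in a window and carry no statement on binding.

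The first question was whether amyloid pathology changed these genes. Cd33 lies at chr7:43524216-43544428 on the minus strand (GRCm38). It had 313, 439.5, 505 and 546 CPM in the 4 WT libraries and 285, 488, 551 and 646 CPM in the Card9-/- libraries. With the transgenes it had 222, 291, 320.2 and 325 CPM in 5xFAD and 208, 315, 385 and 409.5 CPM in Card9-/-5xFAD. In every genotype the lowest value belonged to the library that stood apart, and the groups overlapped only through those libraries. Leaving them out, the 6 libraries without transgenes spanned 439.5 to 646 CPM and the 6 with transgenes 291 to 409.5 CPM. Such a gap between the 2 sets of libraries was seen in 9.7% of all genes, and among the 10 risk genes in Cd33 alone.

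The 2 Card9 genotypes gave similar differences for Cd33. It was lower by 0.64 on the log2 scale in 5xFAD than in WT (SE 0.308, edgeR adjusted p = 0.470) and by 0.58 in Card9-/-5xFAD than in Card9-/- (SE 0.308, edgeR adjusted p = 0.474). The difference between both responses was 0.06, with a 95% interval from −0.86 to 0.98. Without the 4 libraries, Cd33 fell by 0.64 (SE 0.190, edgeR adjusted p = 0.0806) and by 0.58 (SE 0.189, edgeR adjusted p = 0.0727) in the same comparisons. It was the 1 risk gene called in each, where 7.97% and 16.7% of all genes were called. Over both Card9 genotypes without these libraries 34.5% of all genes were called, and again 1 of the 10 risk genes, Cd33. DESeq2 on all 16 libraries also called Cd33 alone (log2 fold change −0.54, SE 0.204, adjusted p = 0.0633, 16.5% of all genes called), as did a covariate made from neuron, astrocyte and oligodendrocyte markers (−0.65, edgeR adjusted p = 0.0700, 14% called). Leaving out single libraries, Cd33 passed without WT replicate 1 (−0.68, edgeR adjusted p = 0.0662), where 14.3% of all genes were called. It also passed without Card9-/- replicate 4 (−0.71, edgeR adjusted p = 0.0369), where 20.5% were called. The summed microglial markers had medians of 29972 CPM in WT, 24738 in Card9-/-, 27587 in 5xFAD and 25192 in Card9-/-5xFAD, and their part in the Cd33 difference was not tested.

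Rin3, an exchange factor for the early endosomal GTPase RAB5, was the other gene with a low unadjusted p for the transgenes. Its gene lies at chr12:102283048-102390855 on the plus strand. WT libraries had 34.7, 41.7, 56.1 and 58.5 CPM, and Card9-/- libraries had 34.5, 59.2, 65.0 and 69.0 CPM. The levels were 31.5, 41.9, 42.3 and 45.9 CPM in 5xFAD and 29.5, 33.2, 35.5 and 46.2 CPM in Card9-/-5xFAD, so all groups overlapped. Over both Card9 genotypes Rin3 was at 0.734 of the level without transgenes (log2 fold change −0.45, SE 0.189, edgeR unadjusted p = 0.0310, adjusted p = 0.169). Most of this came from Card9-/-5xFAD against Card9-/- (−0.65, SE 0.268, edgeR unadjusted p = 0.0268, adjusted p = 0.316), while 5xFAD against WT gave −0.24 (SE 0.267). These 2 values differed by −0.41, with a 95% interval from −1.21 to 0.39. Rin3 passed the test without Card9-/- replicate 3, its lowest library in that genotype (−0.54, edgeR adjusted p = 0.0992), where 9% of all genes were called. Without the 4 libraries that stood apart it gave −0.30 (edgeR adjusted p = 0.293).

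The same comparison was made within pairs of libraries. Libraries with the same replicate number deviated together within a Card9 genotype, in all 4 pairs of WT and 5xFAD (correlations of deviations from the group means across genes of 0.275 to 0.708) and in all 4 pairs of Card9-/- and Card9-/-5xFAD (0.128 to 0.734). Both pairings put the libraries that stood apart beside each other, and without them the correlations were −0.0834 to 0.408 and 0.0725 to 0.297. Cd33, Inpp5d and Plcg2 were lower with the transgenes in 8 of 8 pairs, where 9.56% of all genes were. Bin1 and Rin3 were lower in 7 pairs, Cd2ap in 6, Abi3 in 5, and Picalm, Sorl1 and Ptk2b in 4. Shares of all genes were not determined for these smaller counts, so nothing is read from them. With the pair as a block in edgeR, an alternative chosen after the data had been seen, Cd33 fell by 0.60 over both Card9 genotypes (SE 0.127) and Rin3 fell by 0.42 (SE 0.131). Inpp5d fell by 0.41 (SE 0.124), Bin1 fell by 0.35 (SE 0.127) and Plcg2 fell by 0.31 (SE 0.135). The SEs of these 5 genes were smaller than without the block.

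In the single comparisons of the paired fit, Cd33 was called in 5xFAD against WT (−0.62, SE 0.179, edgeR adjusted p = 0.0502), where 16% of all genes were called and 7.07% were called and lower. Cd33 (−0.57, SE 0.179, edgeR adjusted p = 0.0558) and Rin3 (−0.62, SE 0.187, edgeR adjusted p = 0.0458) were called in Card9-/-5xFAD against Card9-/-, where 20.4% of all genes were called and 9.19% were called and lower. When the 4 libraries that stood apart were left out, the paired fit called Cd33 (−0.60, edgeR adjusted p = 0.00833) and Inpp5d (−0.43, edgeR adjusted p = 0.0210) over both Card9 genotypes (44.5% of all genes), Cd33 in 5xFAD against WT (16.3%), and Cd33 and Inpp5d in Card9-/-5xFAD against Card9-/- (27.6%). Rin3, Bin1 and Plcg2 then had edgeR adjusted p-values of 0.122, 0.105 and 0.197.

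Of the remaining 8 genes, Inpp5d, Bin1 and Plcg2 had the next lowest estimates with the transgenes, at −0.38 (SE 0.237), −0.34 (SE 0.262) and −0.29 (SE 0.287) over both Card9 genotypes. Picalm (−0.22), Cd2ap (−0.20) and Abi3 (−0.17) were nearer to 0, and Sorl1 (−0.03) and Ptk2b (0.02) were at it. The median over the 10 genes was −0.26 and that of all genes tested was −0.15, and 9 of the 10 estimates were below 0. With DESeq2 size factors in edgeR in place of TMM, the median of all genes was −0.08, that of the 10 genes −0.20, and 8 of the 10 estimates were below 0. A fit with 1 surrogate variable called 3 of the 10 genes, Cd33, Rin3 and Inpp5d, where 31.5% of all genes were called. The 95% intervals show the range of changes that these libraries are compatible with. That of Ptk2b ran from −0.73 to 0.76, that of Sorl1 from −0.49 to 0.43 and that of Cd2ap from −0.59 to 0.20.

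Counted against the whole table and unpaired, the 10 genes gave 0 calls for 5xFAD against WT (2.09% of all genes called), 0 for Card9-/-5xFAD against Card9-/- (1.97%) and 0 for the transgenes over both Card9 genotypes (11.3%). At an unadjusted p under 0.05 the edgeR counts were 0 of 10 (10.8% of all genes), 1 of 10, Rin3 (12.2%), and 2 of 10, Cd33 and Rin3 (22.8%). At an adjusted p under 0.1 DESeq2 called 0 (4.07% of all genes), 0 (5.75%) and 1 (16.5%) in the same comparisons. No risk gene had groups that did not overlap in 5xFAD against WT (8.04% of all genes) or Card9-/-5xFAD against Card9-/- (7.01%). Without the 4 libraries that stood apart, Bin1 and Cd33 did not overlap between 5xFAD and WT (28% of all genes), and Cd33 and Inpp5d did not overlap between Card9-/-5xFAD and Card9-/- (32.4%). Neither these calls nor these separations set the 10 genes apart from those shares.

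**Figure D2:**
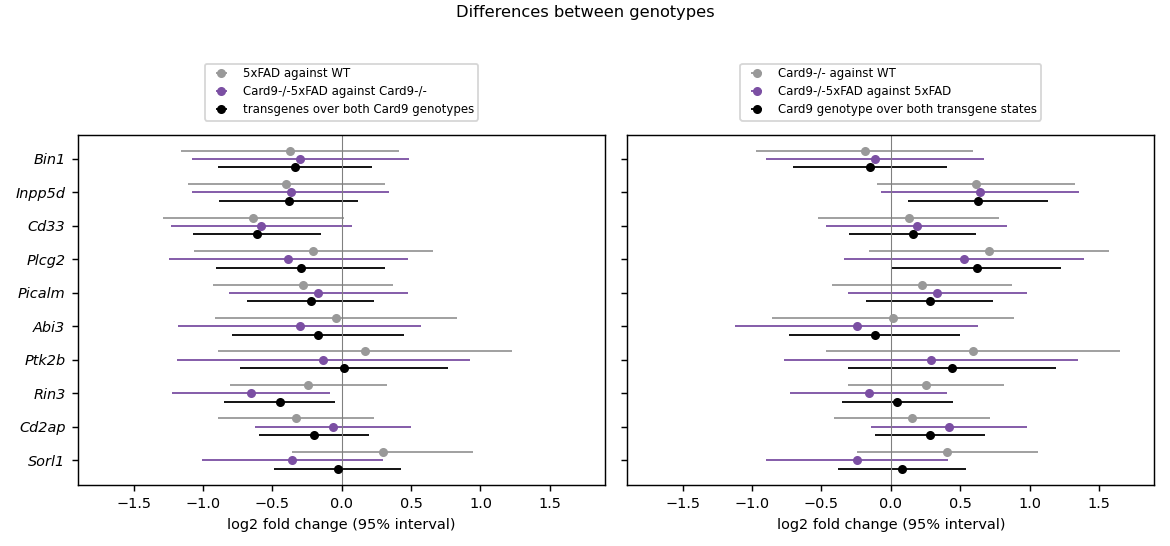
Fitted log2 fold changes (x axis) of the 10 risk genes for the 5xFAD transgenes (left) and for Card9 genotype (right), with 95% intervals from edgeR on 16 libraries. For Cd33 and Rin3 the interval over both Card9 genotypes lies below 0 on the left, and for Inpp5d and Plcg2 the interval over both transgene states lies above 0 on the right; no adjusted p of this unpaired fit was under 0.1.

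The next question was whether loss of Card9 changed these genes, in WT or in 5xFAD mice. Inpp5d, at chr1:87620312-87720507 on the plus strand, had the highest estimate. It had 375, 392, 643 and 701 CPM in WT and 695, 712, 809 and 1014 CPM in Card9-/-, where only the lowest Card9-/- library came under the highest WT library. It had 282, 304, 469 and 547 CPM in 5xFAD and 405, 499, 649 and 951 CPM in Card9-/-5xFAD, which overlapped more. Inpp5d was at 1.55 times the level of the Card9-sufficient libraries over both transgene states (log2 fold change 0.63, SE 0.238, n = 8 against 8, edgeR unadjusted p = 0.0177, adjusted p = 0.498). The estimates were alike in both settings, 0.61 for Card9-/- against WT and 0.64 for Card9-/-5xFAD against 5xFAD (SE 0.336 and 0.337). Without the 4 libraries that stood apart it was 0.52 (SE 0.213, edgeR adjusted p = 0.358).

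Plcg2, at chr8:117498291-117635142 on the plus strand, was close to it in size and less even between libraries. WT libraries had 97.8, 125, 153 and 178 CPM, and Card9-/- libraries 145, 174, 181 and 405 CPM. The 5xFAD libraries had 90.1, 99.4, 144 and 147 CPM, and those of Card9-/-5xFAD had 81.0, 132, 172 and 309 CPM. The highest value in each Card9-deficient genotype was in the library that stood apart. Plcg2 differed by 0.62 over both transgene states (SE 0.288, edgeR unadjusted p = 0.0476, adjusted p = 0.541), and by 0.30 (SE 0.198, edgeR adjusted p = 0.420) without the 4 libraries. More of the Plcg2 difference than of the Inpp5d difference rested on these libraries.

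Ptk2b had an estimate of 0.44 (SE 0.354), Cd2ap of 0.29 (SE 0.187), Picalm of 0.28 (SE 0.216) and Cd33 of 0.16 (SE 0.217) for Card9 genotype. Sorl1 (0.08), Rin3 (0.05), Abi3 (−0.12) and Bin1 (−0.15) were nearer to 0. The median over the 10 genes was 0.22, beside 0.13 for all genes tested. It was −0.03 with the slope of expression on exon length as a covariate, and 6 of the 10 genes were then lower, in place of 2. This slope ran from −0.0979 to 0.177 log2 units per doubling of exon length in WT and from 0.0442 to 0.370 in Card9-/-, and from −0.254 to −0.0269 in 5xFAD and from −0.177 to 0.119 in Card9-/-5xFAD. The ranges overlapped between Card9 genotypes in each transgene state, and the part of the slope in the estimates was not tested further.

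No risk gene was called for Card9 genotype in Card9-/- against WT (0% of all genes called), in Card9-/-5xFAD against 5xFAD (0%) or over both transgene states (0.0276%), and DESeq2 called 0 in each too. At an unadjusted p under 0.05 the edgeR counts were 0 of 10 (4.11% of all genes), 0 of 10 (2.52%) and 2 of 10, Inpp5d and Plcg2 (9.12%). Groups that did not overlap were found for 0 of 10 risk genes in Card9-/- against WT (2.66% of all genes) and in Card9-/-5xFAD against 5xFAD (1.89%). The interaction, which asks whether the response to the transgenes differed with Card9 genotype, called 0 of 10 (0% of all genes). It gave 0 at an unadjusted p under 0.05 (0.537% of all genes). At an adjusted p under 0.1 DESeq2 called 0 (0.00689% of all genes), and the paired fit called 0 (0%). The lowest unadjusted edgeR p for the interaction was that of Sorl1 (0.154), which was 0.30 higher in 5xFAD than in WT (SE 0.307) and differed by −0.36 in Card9-/-5xFAD against Card9-/- (SE 0.308).

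The risk genes differed between the libraries that stood apart and the others, in both directions. Bin1, Cd33 and Abi3 had their lowest level in the library that stood apart in 4 of 4 genotypes, where 16.1% of all genes tested did. Picalm, Sorl1 and Cd2ap had their highest level there in 4 of 4 genotypes, where 20% of all genes did. Against the mean of the other 3 libraries of the genotype, the mean log2 difference was −1.25 for Abi3, −1.04 for Bin1, −0.95 for Ptk2b and −0.73 for Cd33. It was 0.89 for Plcg2, 0.60 for Picalm, 0.57 for Sorl1, 0.55 for Inpp5d, 0.46 for Cd2ap and 0.20 for Rin3. The libraries were picked on the variation of other genes measured in the same libraries, so these values are a description and were not tested.

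**Figure D3:**
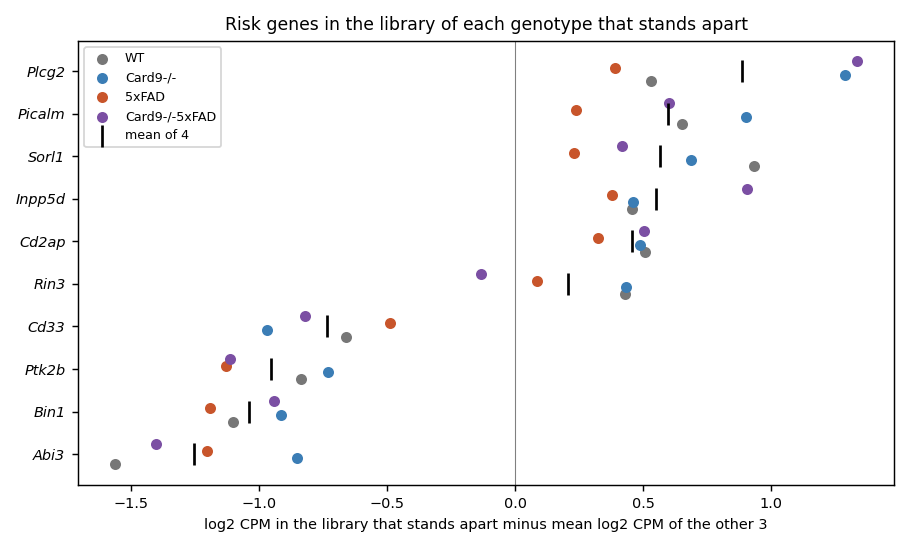
Difference in log2 CPM (x axis) between the library of each genotype that stood apart and the mean of the other 3 libraries of that genotype, for each risk gene. Points are genotypes and the vertical mark is their mean; Abi3, Bin1, Ptk2b and Cd33 lie below 0 in all 4 genotypes, and Plcg2, Picalm, Sorl1, Inpp5d and Cd2ap lie above 0 in all 4.

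Bin1 (chr18:32377230-32435737, plus strand) was lower in that library in each genotype. It had 356 CPM in WT replicate 1 and 710 to 848 CPM in the other WT libraries. In Card9-/- it had 349 CPM in replicate 4 and 573 to 726 CPM in the others. The corresponding values were 261 against 570.0 to 616 CPM in 5xFAD, and 278 against 434 to 634 CPM in Card9-/-5xFAD. The membrane-bending protein it encodes has a neuronal form too. Neuronal markers summed to 6.22 to 21.9 CPM in the 4 libraries and 3.65 to 10.5 CPM in the other 12. Syt1, Map2, Nefl, Slc17a7 and Gad1 had 0 counts in at least 1 library. Snap25, Rbfox3 and Camk2a had at least 3, 3 and 9 counts in every library. The part of neuronal RNA in the Bin1 level was not tested. Bin1 shares 256 exon bases on the opposite strand with A830052D11Rik, at 19.4 to 38.8 CPM in the 4 libraries and 4.10 to 12.5 CPM in the others. Reads from these bases cannot be assigned to a single gene without the strand setting.

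Abi3 (chr11:95830074-95842476, minus strand) had 24.3 CPM in WT replicate 1 and 68.8 to 75.0 CPM in the other WT libraries. Its lowest values in the other genotypes were 37.6 CPM in Card9-/-, 29.3 in 5xFAD and 21.6 in Card9-/-5xFAD. The gene shares exon bases on the opposite strand with Zfp652 (2913 bases), Phospho1 (1708 bases) and Gngt2 (234 bases). Gngt2, a G protein subunit, went the other way, with 980.0 to 2172 CPM in the 4 libraries and 95.8 to 635 CPM in the other 12. Zfp652, with the most shared bases, did not separate them, with 50.4 to 119 CPM in the 4 and 43.9 to 146 CPM in the other 12. The strand setting of the counting is not given in the sources used here, so reads from the shared bases cannot be assigned to one gene.

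Picalm (chr7:90130213-90213465, plus strand), the clathrin assembly protein, had 413 CPM in WT replicate 1 and 216 to 329 CPM in the other WT libraries. The library that stood apart had 541 CPM in Card9-/- (others 231 to 330.1), 281 in 5xFAD (others 224 to 271) and 422 in Card9-/-5xFAD (others 248 to 335). Unclassified transcripts are listed within Picalm on its strand with no exon base in common. Of these, Gm45222 and Gm45223 were also highest in the library that stood apart in all 4 genotypes, where 20% of all genes were. Gm45221 was highest in that library in 2 genotypes and Gm45220 in 1. Gm45222 had 176, 211, 59.6 and 125 CPM there in WT, Card9-/-, 5xFAD and Card9-/-5xFAD, and at most 60.2 CPM in the other 12 libraries. Whether the counts on Picalm and on these transcripts have one source was not tested.

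Sorl1 (chr9:41964720-42124297, minus strand), a sorting receptor for the amyloid precursor protein, had 16.004, 23.9, 31.5 and 44.0 CPM in WT and 26.4, 33.1, 40.6 and 53.0 CPM in Card9-/-. It had 29.3, 36.1, 36.3 and 39.6 CPM in 5xFAD and 22.4, 26.1, 34.7 and 36.4 CPM in Card9-/-5xFAD, and all groups overlapped. Cd2ap (chr17:42792951-42876665, minus strand), an adaptor between membrane receptors and actin, had 60.0, 77.7, 97.9 and 109.5 CPM in WT and 66.6, 89.1, 107 and 121 CPM in Card9-/-. The 4 values of 5xFAD, 62.8, 65.3, 65.5 and 80.8 CPM, were closer to each other than those of Card9-/-5xFAD, 72.5, 76.2, 101 and 117 CPM. Picalm, Cd2ap and Sorl1 have the longest exon sequence of the 10 genes (15.7, 15.9 and 11.3 kb), and Bin1 and Abi3 the shortest (4.12 and 4.15 kb). Plcg2, with 4.30 kb, was among those that were higher in the 4 libraries. Of similar length, Cd33 (7.77 kb) was lower there and Inpp5d (7.60 kb) was higher. The part of exon length in these differences was not tested.

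Ptk2b (chr14:66153257-66281052, minus strand) varied most within genotypes. It had 42.8, 55.9, 83.9 and 175 CPM in 5xFAD and 47.1, 50.9, 151 and 188 CPM in Card9-/-5xFAD. WT libraries had 48.4, 62.4, 82.2 and 126 CPM, and Card9-/- libraries 80.1, 125, 128 and 147 CPM. Its SE for the transgenes over both Card9 genotypes, 0.353, was the largest of the 10 genes.

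**Figure D4:**
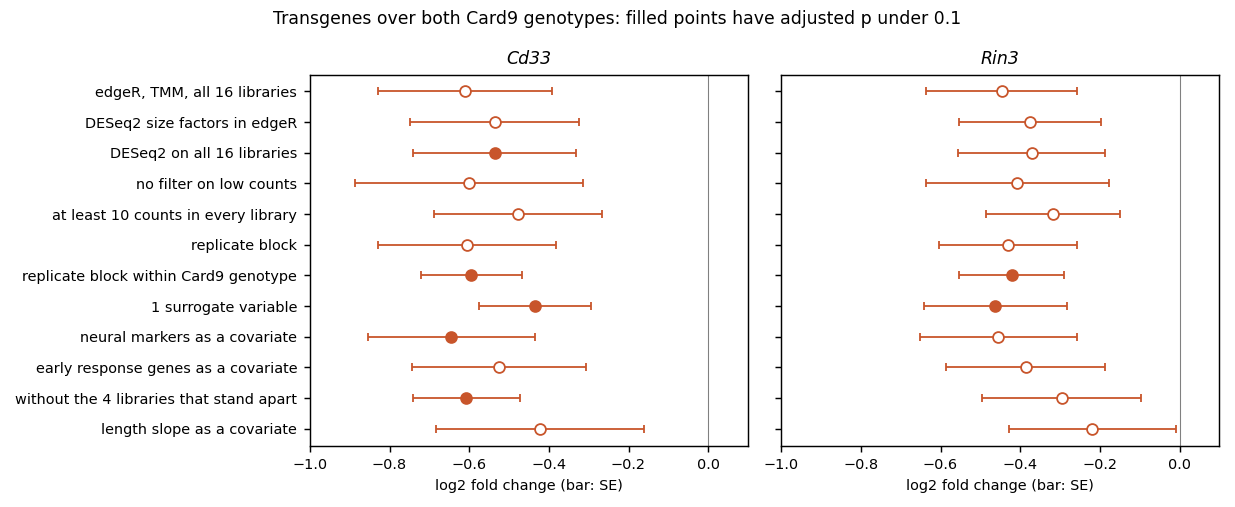
Log2 fold change (x axis, bars are SE) of Cd33 and Rin3 for the transgenes over both Card9 genotypes, under the analysis reported and 11 alternatives. All estimates lie below 0, and filled points have an adjusted p under 0.1, which holds for Cd33 with DESeq2, with the replicate block within Card9 genotype, with a surrogate variable, with neural markers as a covariate and without the 4 libraries, and for Rin3 with that block and with a surrogate variable.

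The pathways around these genes did hold genes that passed the test for the transgenes over both Card9 genotypes. Over the 10 pathway lists, 34 of 189 genes tested (18%) were called, where 11.3% of all genes were. In the paired fit 100 of the 189 (52.9%) were called, where 41.9% of all genes were, and these included every gene called in the unpaired fit. Without the 4 libraries that stood apart, the unpaired shares were 36.7% of list genes and 34.5% of all genes. The lists were chosen with earlier results of these data known, so no excess over all genes is read from them. Counts of single lists stand beside these shares of all genes, and nothing is read from a list near them. Of 33 other Alzheimer risk loci tested, 5 rose and 3 fell (7 and 11 in the paired fit), beside a median of −0.16. Those that rose included Apoe, the lipid carrier (log2 fold change 1.53, SE 0.237), Trem2, the lipid-sensing receptor (1.40, SE 0.220), the adaptor Scimp (1.35, SE 0.266) and the lysosomal protease Ctsh (0.91, SE 0.247). Cass4, a Cas-family scaffold (−1.10, SE 0.190), Usp6nl, a GTPase-activating protein for RAB5 (−0.73, SE 0.197), and the RNA-binding protein gene Celf1 (−0.56, SE 0.187) fell. All adjusted p-values in these pathway lists are from the same edgeR fit, and in these 8 genes they were 0.0987 or lower. Apoe is also one of the 12 markers of disease-associated microglia used here, which summed to 7072 to 9578 CPM in WT and 26917 to 34735 CPM in 5xFAD.

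Among the siglecs, to which Cd33 belongs, and listed related receptors and phosphatases of inhibitory motifs, 3 of 15 rose and 3 fell (4 and 4 in the paired fit). Siglecf (1.38, SE 0.291), Cd22 (1.32, SE 0.214) and Cd300lf (0.91, SE 0.229) rose. Siglecg (−1.52, SE 0.241), Siglece (−1.16, SE 0.376) and Siglec1 (−1.10, SE 0.364) fell. Siglecg had 11.6 to 19.9 CPM in WT and 4.11 to 7.28 CPM in 5xFAD, and 10.7 to 16.7 CPM in Card9-/- and 2.86 to 8.01 CPM in Card9-/-5xFAD, so the groups with and without transgenes did not overlap. Cd22 went the other way, from 8.81 to 11.98 CPM in WT to 19.1 to 35.5 CPM in 5xFAD. Siglec1 is a macrophage receptor. The markers of border-associated macrophages summed to 880 to 1432 CPM in WT and 515 to 646 CPM in 5xFAD, which did not overlap. They summed to 853 to 1695 CPM in Card9-/- and 370 to 1579 CPM in Card9-/-5xFAD, which overlapped. Their part in the Siglec1 difference was not tested.

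Of 17 inositol phosphatases and partners of SHIP1, 4 fell and none rose (9 and 1 in the paired fit). Among them were Dok3, an adaptor that binds SHIP1 (−1.14, SE 0.208), the phosphatase Inpp4b (−0.69, SE 0.177), and Cd2, a lymphocyte adhesion receptor (−1.19, SE 0.353). Cd2 was low, at 1.28 to 6.42 CPM in WT and 1.36 to 3.79 CPM in 5xFAD, which overlapped, and at 1.30 to 2.16 CPM in Card9-/- and 0.395 to 0.869 CPM in Card9-/-5xFAD, which did not. T and NK cell markers summed to 29.7 to 239 CPM in WT, 21.0 to 98.0 in 5xFAD, 29.5 to 31.4 in Card9-/- and 12.8 to 38.4 in Card9-/-5xFAD, and their part in the Cd2 difference was not tested. In the pathway from ITAM receptors to phospholipase C gamma, 1 of 23 rose (Trem2) and 3 fell, and 4 rose and 15 fell in the paired fit. Those that fell unpaired were Vav3, an exchange factor (−1.62, SE 0.312), and the inositol trisphosphate receptors Itpr1 (−0.82, SE 0.251) and Itpr2 (−0.61, SE 0.184), which open calcium stores below Plcg2. The median over this list was −0.46, beside −0.15 for all genes.

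In clathrin and AP2 endocytosis, where Picalm acts, 1 of 22 rose and 4 fell (4 and 8 in the paired fit). The clathrin light chain Clta rose by 0.62 (SE 0.177), while the epsins Epn2 (−1.08, SE 0.211) and Epn1 (−0.98, SE 0.294), the scaffold Itsn1 (−0.85, SE 0.226) and the AP2 subunit Ap2a2 (−0.72, SE 0.250) fell. Ap2a2 was not called with DESeq2 size factors in edgeR, where Ap2s1 was, and the list then gave 2 that rose and 3 that fell. Of 13 partners of Bin1 in membrane bending and fission, Sh3gl1, an endophilin, fell by 0.56 (SE 0.169), and in the paired fit 1 rose and 5 fell. Of 13 genes of the RAB5 endosome and the RIN family, none was called in either direction, and in the paired fit 1 rose and 3 fell. In retromer and VPS10 sorting, the pathway of Sorl1, 1 of 16 was called, Vps29, which rose (0.92, SE 0.205). With DESeq2 size factors in edgeR 2 rose, Vps29 and Hspa12a, and in the paired fit 3 rose and 2 fell.

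Among 18 genes of the WAVE complex and Arp2/3, around Abi3, 3 rose and 1 fell (6 and 2 in the paired fit). The WAVE subunit Brk1 (0.81, SE 0.246) and the Arp2/3 subunits Arpc3 (0.86, SE 0.214) and Arpc2 (0.54, SE 0.178) rose, and the WAVE subunit Cyfip2 fell by 1.17 (SE 0.248). Of 21 focal adhesion and Src family genes, near Ptk2b, the Src family kinase Fgr rose (0.80, SE 0.205) and the integrin activator Fermt3 fell by 0.59 (SE 0.195), and in the paired fit 3 rose and 8 fell. Fermt3 was not called with DESeq2 size factors in edgeR. Without the 4 libraries that stood apart, every gene called in the 10 lists was called again, and 69 of 188 genes (36.7%) were called in all, where 34.5% of all genes were, against 11.3% with them. No gene of the 10 lists was called for Card9 genotype over both transgene states, with or without these libraries.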

How the data were processed

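RNA from CD11b+ bead-sorted brain cells was measured in 16 libraries, with groups and replicate numbers taken from the sample labels. The deposited values are raw read counts per gene. Per the study's methods and the submitters' processing notes, the authors aligned reads to mm10 with HISAT2, filtered them with SAMtools and counted them with HTSeq; the annotation and strand setting are not given in the sources used here. The labels do not say that replicates are separate animals, so p-values measure the spread between these libraries. Depth was 2970148 to 19333325 counts per library, and no pair of libraries within a genotype agreed within sampling noise (in 24 pairs, the lowest ratio of chi-square to its degrees of freedom was 6.92).

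In R 4.3.3, edgeR 4.0.16 was fitted to all 16 libraries (TMM, filterByExpr with a minimum count of 10, group means, quasi-likelihood F test), which left 14513 genes. Benjamini-Hochberg adjustment was made over these genes, with a threshold of 0.1. The 7 comparisons were the transgenes in each Card9 genotype and their mean, Card9 genotype in each transgene state and their mean, and the interaction. CPM used TMM library sizes, and log2 CPM a prior count of 2. Exon lengths and positions came from GENCODE M21 (GRCm38), and promoter windows from RefSeq (GRCm38.p6). The code was tested on simulated data. Alternatives were DESeq2 1.42.0, its size factors in edgeR, no filter, at least 10 counts in every library, only the groups compared, thresholds of 0.05 or of 0.1 with a log2 change of 0.5, a replicate block, a surrogate variable (sva 3.50.0), marker covariates and leaving out each library.

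All 10 members are named in the text, and of each pathway list all called genes where 6 or fewer were called, otherwise the 4 of lowest adjusted p in each direction. Some listed genes are not reported here by name. The members, the 10 pathway lists and the 13 marker lists were chosen with earlier results of these data known. Whether same-numbered replicates deviate together was checked from the correlations of their deviations from the group means, over all genes tested. All 4 pairs of WT and 5xFAD and all 4 pairs of Card9-/- and Card9-/-5xFAD were above 0.1, so the numbers were taken to pair libraries within a Card9 genotype, as a hint from the data that the labels do not state. In each pairing across Card9 genotypes at least 1 pair was below 0. A block for these pairs was therefore added for the comparisons of the transgenes and the interaction (the paired fit), after the data had been seen.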

Additional observations from a re-analysis of the deposited data

Results flagged for a closer look

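Within a genotype of 4 libraries, 4 of 40 sets of values for the risk genes had 1 library farther from its neighbor than Dixon's 95% critical value allows, where chance flags about 1 in 20 sets. All 4 were in libraries that stood apart. Bin1 was at 261 CPM in 5xFAD replicate 1, where the nearest library had 570.0 CPM. Abi3 was at 24.3 CPM in WT replicate 1, beside 68.8 CPM in the nearest. Cd2ap was at 80.8 CPM in 5xFAD replicate 1, beside 65.5 CPM. Plcg2 was at 405 CPM in Card9-/- replicate 4, beside 181 CPM.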

How the results depend on the processing

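The count of risk genes called was 0 in all 7 comparisons under every alternative but these. For the transgenes over both Card9 genotypes it was 1 with DESeq2 (Cd33), 3 with 1 surrogate variable (Cd33, Rin3 and Inpp5d) and 1 with neuron, astrocyte and oligodendrocyte markers as a covariate (Cd33). Leaving out 1 library gave 0 to 1: Cd33 without WT replicate 1 or without Card9-/- replicate 4, and Rin3 without Card9-/- replicate 3. In these fits 14.3%, 20.5% and 9% of all genes were called. Without the 4 libraries that stood apart, an alternative chosen after seeing the data, it was 1 (Cd33) in 5xFAD against WT, 1 in Card9-/-5xFAD against Card9-/- and 1 over both Card9 genotypes; the cause was not tested. With a replicate block within each Card9 genotype, also chosen after seeing the data, it was 1 (Cd33), 2 (Cd33 and Rin3) and 5 (Cd33, Inpp5d, Rin3, Bin1 and Plcg2) in the same comparisons, and with that block and without the 4 libraries 1, 2 and 2. The pairing changed no call in the interaction. The slope on exon length as a covariate, also chosen after seeing the data, gave 0 calls and −0.42 for Cd33 (edgeR adjusted p = 0.468). A replicate block over all 4 genotypes gave 0 calls in each comparison (Cd33 −0.60, edgeR adjusted p = 0.121 for the transgenes over both Card9 genotypes). Across Card9 genotypes the replicate numbers were not found to pair the libraries. Of 1940 fold changes of the risk genes under alternatives, 134 had the other sign than in the analysis reported, none of them past the threshold. With DESeq2 size factors in edgeR, 58.7% of the genes called for the transgenes were higher, against 49.5% with TMM.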
